A study of Mus musculus with 4 samples.

Results

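The genes described here are transcription factors that pattern the dorsal forebrain. They were listed by name, as the 9 genes Lhx2, Emx1, Emx2, Pax6, Nr2f1, Nr2f2, Otx1, Dmrta2 and Sp8. Of these, 7 were analysed among the 16449 genes of the count table, 6 were abundant enough to be tested among 5878 tested genes, and Emx1 was below the limit for testing. Dmrta2 and Sp8 were not analysed here.

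Long-read Nanopore RNA sequencing was performed on poly(A)-enriched RNA from E11.5 mouse forebrain, micro-dissected to the dorsal and the medial pallium, with 2 WT (wild-type) and 2 knockout-labelled libraries. Tut1 encodes a terminal uridylyltransferase that acts on the U6 small nuclear RNA of the spliceosome, and the comparison asked how transcripts differ when it is deleted in the developing cortex. The knockout-labelled libraries were Tut1 f/f;Emx1-Cre, and the study lists the WT libraries as homozygous for the same floxed allele without Cre, so that both groups shared the floxed Tut1 gene. Cre was expressed from the Emx1 locus itself, which is active in dorsal telencephalic progenitors, so other cells of the dissected tissue keep Tut1. The number of embryos per library is not stated, so p-values speak to these libraries alone. With 2 residual and 37.5 prior degrees of freedom, the spread behind each p-value was estimated largely across genes.

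In the early forebrain, these factors give cells of the neuroepithelium their regional identity. Lhx2, a LIM-homeodomain factor, is needed in the cortical primordium to keep it from taking on the fate of the cortical hem or antihem. Emx2 and Nr2f1 are graded along the cortical sheet and help to set the position of cortical areas, with Emx2 high caudomedially and Pax6 high rostrolaterally.

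The targeted gene was checked first. Tut1 had 6 and 11 counts in WT replicates 1 and 2, against 29 and 25 counts in knockout-labelled replicates 1 and 2. These correspond to 24.4 ± 8.87 and 81.9 ± 6.90 CPM (counts scaled to a common library size by the trimmed mean of M-values, TMM; SD, n = 2 each), so Tut1 rose where the label says it was deleted (log2 fold change 1.71 ± 0.40 SE, adjusted p = 0.0113, edgeR quasi-likelihood test with Benjamini-Hochberg adjustment). A count over the whole gene does not show whether the floxed exon was lost, and the groups are named here by their labels. Library totals ranged from 305642 to 397150 counts. The Pearson correlations of log2 CPM across tested genes were 0.933 and 0.935 within groups and 0.902 to 0.914 between groups.

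To place the factors in the genome, the 300-base windows around RefSeq transcription starts (250 bases before and 50 after the start, GRCm38.p6) are shown for the 4 of 7 genes analysed whose libraries did not overlap in CPM between groups, as was the case for 42.9% of all tested genes. They were thus chosen on the measured values. Capitals mark matches, on either strand, to 5 short motifs: the homeodomain core TAATTA, the Otx-class core TAATCC, the nuclear receptor half-site AGGTCA, the GC box GGGCGG and the TCF/LEF core CTTTGA. Where GC boxes run together, as in Emx1 and Emx2, neighbouring matches overlap.
Lhx2, first start, chr2:38339031-38339330, plus strand: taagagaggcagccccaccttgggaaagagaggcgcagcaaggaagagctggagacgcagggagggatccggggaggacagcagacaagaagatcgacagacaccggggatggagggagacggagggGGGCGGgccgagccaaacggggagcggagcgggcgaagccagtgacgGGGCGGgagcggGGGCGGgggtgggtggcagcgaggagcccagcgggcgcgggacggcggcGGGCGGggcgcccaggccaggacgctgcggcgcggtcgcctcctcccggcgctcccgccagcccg
Emx1, chr6:85187681-85187980, plus strand: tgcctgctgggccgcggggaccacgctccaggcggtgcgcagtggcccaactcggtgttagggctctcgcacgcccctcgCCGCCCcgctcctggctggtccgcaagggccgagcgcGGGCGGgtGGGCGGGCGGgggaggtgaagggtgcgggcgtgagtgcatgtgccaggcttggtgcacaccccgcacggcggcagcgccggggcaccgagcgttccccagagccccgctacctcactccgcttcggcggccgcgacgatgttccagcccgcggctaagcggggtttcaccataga
Emx2, chr19:59458440-59458739, plus strand: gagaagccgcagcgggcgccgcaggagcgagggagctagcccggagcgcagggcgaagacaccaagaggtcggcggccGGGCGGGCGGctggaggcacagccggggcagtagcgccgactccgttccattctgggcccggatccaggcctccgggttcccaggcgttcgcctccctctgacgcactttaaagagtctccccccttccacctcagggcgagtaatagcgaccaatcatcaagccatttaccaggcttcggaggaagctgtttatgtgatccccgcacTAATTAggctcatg
Nr2f2, chr7:70366697-70366996, minus strand: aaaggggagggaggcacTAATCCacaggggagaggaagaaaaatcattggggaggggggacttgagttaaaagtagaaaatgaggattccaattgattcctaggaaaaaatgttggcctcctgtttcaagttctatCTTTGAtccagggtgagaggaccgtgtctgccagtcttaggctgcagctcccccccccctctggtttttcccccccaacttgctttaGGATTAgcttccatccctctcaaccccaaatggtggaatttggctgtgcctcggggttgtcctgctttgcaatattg
The Lhx2 window had a GC content of 74.7% and 34 CpG dinucleotides, and the Emx1 window 74% and 37, and each held 4 GC boxes. A second Lhx2 start, with the window chr2:38351058-38351357, was 69.3% GC and held no match. The Emx2 window was 64.3% GC with 26 CpG, and held 2 GC boxes and 1 homeodomain core. The Nr2f2 window was 49.7% GC with 2 CpG and held no GC box, 2 Otx-class cores and 1 TCF/LEF core. Low GC was not particular to it: windows of Pax6 (46.3% GC) and of a second Nr2f1 start (43% GC, 4 CpG), not shown, also held no GC box. Over all 32851 mouse windows of the same length the median GC content was 52.7% and the median CpG number 7. GC boxes were found in 35.7% of them, homeodomain cores in 5.29%, Otx-class cores in 7.06%, nuclear receptor half-sites in 16.3% and TCF/LEF cores in 16%. A match is a string of letters, and binding there was not measured.

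Among the 6 tested members the largest difference was in Lhx2 (chr2:38339281-38369733, plus strand, GENCODE M21 on GRCm38). It had 348 and 272 counts in the WT libraries, against 106 in each knockout-labelled library. As CPM these were 1054 and 760 against 282 and 368. Both WT libraries lay well above both knockout-labelled libraries. Lhx2 fell by 1.49 on the log2 scale (SE 0.18), which is a level 2.81-fold higher in WT (95% interval 2.19 to 3.60; adjusted p = 6.48e-07, edgeR). By p-value it ranked 2 of the 5878 tested genes. It was the only member called, 1 of 6 tested, where 2.06% of all tested genes were called (121 genes, 82 higher and 39 lower in the knockout-labelled libraries; scaled by total counts alone, 105 higher and 24 lower). The call rested on the first knockout-labelled library: without it the log2 fold change was -1.30 with an adjusted p of 0.0539, and 3 genes in all were called. In bulk tissue, fewer cells that express a gene and less of its RNA per cell cannot be told apart.

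Neither tested neighbour of Lhx2 was called, where edgeR called 2.06% of all tested genes. Dennd1a, the nearest tested gene on the lower-coordinate side, differed by -0.72 ± 0.41 (log2, SE; adjusted p = 0.446, edgeR). Nek6, on the other side, differed by -0.10 ± 0.17 (adjusted p = 0.874, edgeR). An annotated antisense gene within Lhx2, Gm27197, had 1 count in 1 library, and the other, Gm13584, was not analysed here. Among 2134 tested genes with a mean count of at least 30, the genes with centred log2 CPM profiles nearest to Lhx2 over the 4 libraries were Gm3764, Igsf9 and Fhl1, at Euclidean distances of 0.48, 0.49 and 0.52 log2 units.

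Emx2 and Emx1, the homologues of the fly empty spiracles gene, were both lower in each knockout-labelled library than in each WT library. Emx2 (chr19:59458372-59465357, plus strand) had 48 and 62 counts in WT against 23 and 31 in the knockout-labelled libraries, or 145 and 173 CPM against 61.1 and 108 CPM. The groups did not overlap. The log2 fold change was -0.96 ± 0.28 (SE; unadjusted p = 0.00171, adjusted p = 0.0639, edgeR), which did not pass the threshold. It did pass with limma-voom (adjusted p = 0.0445) and with a filter of 10 counts in 2 libraries (adjusted p = 0.0499), and without the first knockout-labelled library the value shrank to -0.57 (adjusted p = 0.630).

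Emx1 (chr6:85187438-85204462, plus strand), whose product marks dorsal telencephalic progenitors, was scarce throughout. It had 6 and 7 counts in WT against 1 and 2 in the knockout-labelled libraries. The groups did not overlap, but they rested on 13 counts against 3. The rate in WT was 4.04 times that in the knockout-labelled libraries, with an exact interval of 1.11 to 22.1 that covers counting error only. In a fit without the filter on low counts, its log2 fold change was -1.97 ± 0.84 (SE; adjusted p = 0.388, edgeR). Since Cre sits in the Emx1 locus, the Cre allele and the loss of Tut1 cannot be told apart for this gene.

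**Figure D1:**
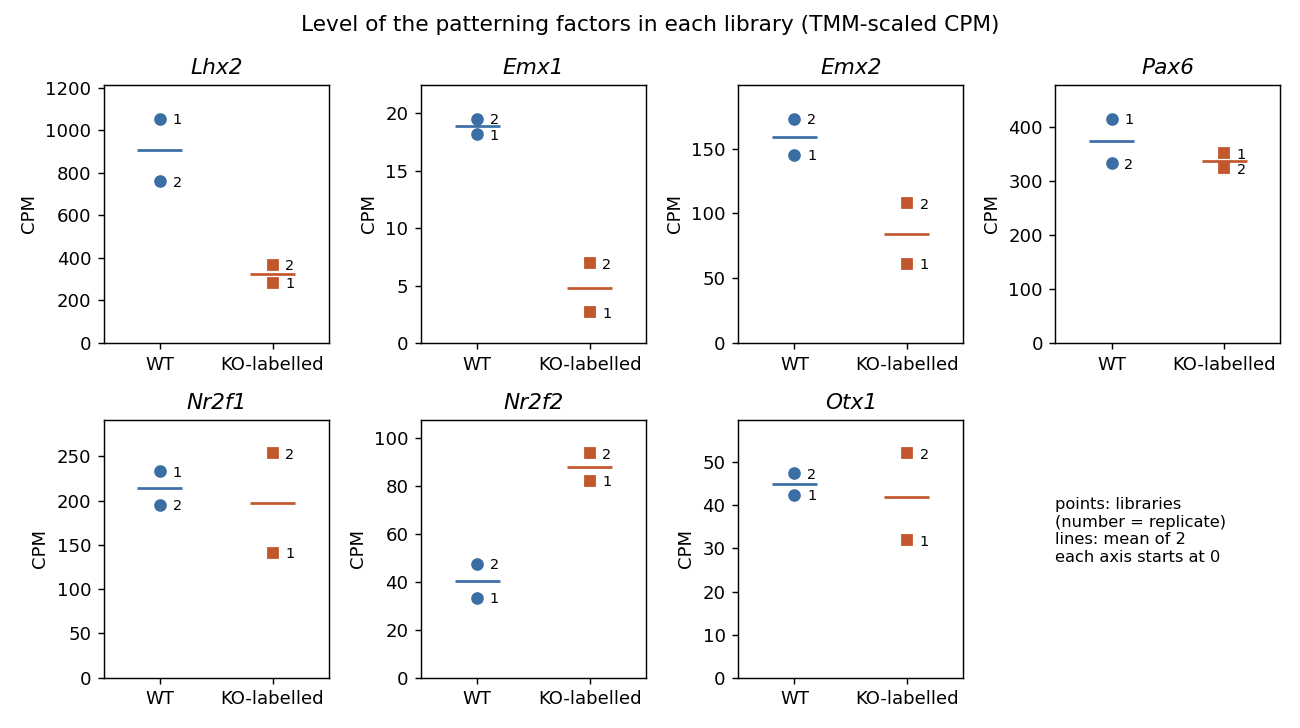
TMM-scaled CPM of the 7 factors analysed in each library, with WT as circles, knockout-labelled libraries as squares, the replicate number beside each point and the mean of 2 libraries as a line. Lhx2 (1054 and 760 against 282 and 368), Emx1 and Emx2 were lower and Nr2f2 was higher in both knockout-labelled libraries, while Pax6, Nr2f1 and Otx1 overlapped.

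Nr2f2 went the other way from Lhx2. This gene (COUP-TFII; chr7:70351944-70366735, minus strand) encodes an orphan nuclear receptor that is found in the caudal and ventral forebrain and in vessels and mesenchyme. It had 11 and 17 counts in WT against 31 and 27 in the knockout-labelled libraries, or 33.3 and 47.5 CPM against 82.4 and 93.8 CPM. Both WT libraries lay below both knockout-labelled libraries. The log2 fold change was 1.10 ± 0.36 (SE, 95% interval 0.38 to 1.82; unadjusted p = 0.00363, adjusted p = 0.0973, edgeR) and did not pass the threshold. Lhx2, Emx2 and Nr2f2 are thus 3 of 6 tested members with an unadjusted p below 0.05, where 14.2% of all tested genes had one. The groups did not overlap in CPM for the same 3 of 6 tested members, where this held for 42.9% of all tested genes, so that the separation of 2 against 2 libraries is common here.

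Pax6, Nr2f1 and Otx1 differed little between the group means. Pax6 (chr2:105668900-105697364, plus strand), a paired-domain factor of cortical progenitors, had 137 and 119 counts in WT against 132 and 93 in the knockout-labelled libraries. The groups overlapped in CPM, and the log2 fold change was -0.14 ± 0.19 (SE, 95% interval -0.52 to 0.23; adjusted p = 0.816, edgeR). A change of 2-fold in either direction lay outside this interval. Nr2f1 (COUP-TFI; chr13:78188973-78199757, minus strand), the receptor related to Nr2f2, had 77 and 70 counts against 53 and 73. Its groups overlapped too, with a log2 fold change of -0.15 ± 0.24 (SE, 95% interval -0.64 to 0.34; adjusted p = 0.857, edgeR). Otx1 (chr11:21994764-22002897, minus strand), an orthodenticle homologue of the dorsal forebrain, had 14 and 17 counts against 12 and 15. These overlapped, and at this depth the interval was wide (log2 fold change -0.14 ± 0.41 SE, 95% interval -0.96 to 0.68; adjusted p = 0.922, edgeR). The direction of all 3 was not fixed: Pax6 turned to 0.015 without WT replicate 1, and Nr2f1 and Otx1 to 0.24 and 0.21 without the first knockout-labelled library. Over the 6 tested members, 5 were lower and 1 higher, with a median log2 fold change of -0.15 beside -0.01 over all tested genes.

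**Figure D2:**
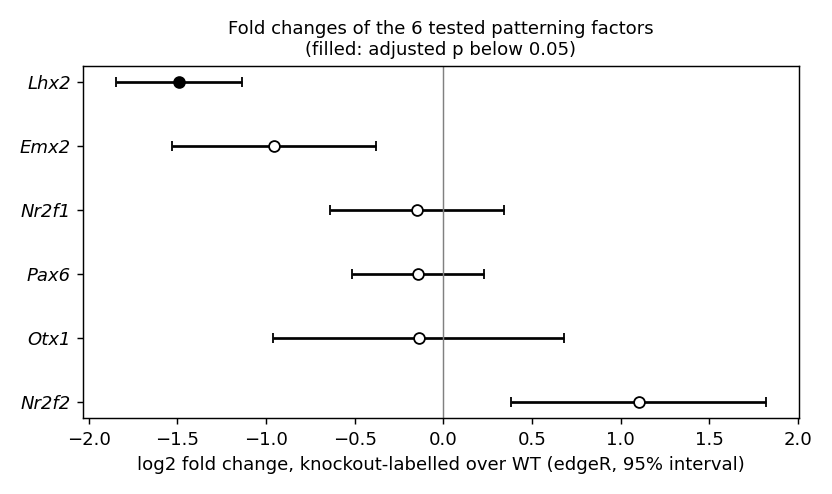
Log2 fold change of the 6 tested factors, knockout-labelled libraries over WT, with 95% intervals from edgeR. The interval of Lhx2 runs from -1.85 to -1.13, those of Emx2 (-1.53 to -0.38) and Nr2f2 (0.38 to 1.82) leave out 0 without passing the adjusted threshold, and those of Pax6, Nr2f1 and Otx1 span 0.

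Several members have an annotated gene on the opposite strand or a close relative. Emx2os had 6, 15, 4 and 5 counts over WT replicates 1 and 2 and knockout-labelled replicates 1 and 2, and lies opposite Emx2. In the same order A830082K12Rik, opposite Nr2f1, had 10, 16, 28 and 18 counts. Pax6os1 and B130024G19Rik, opposite Pax6 and Nr2f2, had at most 6 counts in any library. Whether the counting used strand is not stated, so reads of these pairs may be exchanged. The longest transcripts of Nr2f1 and Nr2f2 share a stretch of 1280 nucleotides at 80.5% identity, and those of Emx1 and Emx2 one of 458 nucleotides at 71.8%. Lhx2 shares 951 nucleotides at 70.1% with Lhx9, and Otx1 shares 309 at 74.8% with Otx2.

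Levels of different genes were compared as CPM per kilobase of the longest annotated transcript. In WT, Lhx2 was the highest at 319, followed by Pax6 at 84.4, Nr2f1 at 66.8 and Emx2 at 54.6 CPM per kilobase. Emx1 (12.1), Nr2f2 (9.57) and Otx1 (8.52) were far lower, and Nr2f2 and Otx1 overlapped between libraries. In the knockout-labelled libraries Lhx2 was again the highest at 114 CPM per kilobase, with Pax6 at 76.1, Nr2f1 at 61.5, Emx2 at 28.9 and Nr2f2 at 20.9. There Pax6 overlapped Nr2f1, and Emx2 overlapped Nr2f2. Otx1 (7.96) and Emx1 (3.08) came last. These orders depend on the division by length, which long reads, counted 1 per molecule, may not call for. As plain CPM, Pax6 (337 ± 19.6) and Lhx2 (325 ± 61.1) overlapped between the knockout-labelled libraries, and in WT Emx1 (18.9 ± 0.97) was below Nr2f2 (40.4 ± 10.02) and Otx1 (44.9 ± 3.59; SD, n = 2 each).

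The composition of the member counts does not depend on how libraries are scaled. Lhx2 held 54.3% and 48.2% of the summed counts of the 7 members in WT and 29.6% and 30.5% in the knockout-labelled libraries, with exact Clopper-Pearson 95% intervals of 50.3 to 58.2, 44.0 to 52.4, 24.9 to 34.6 and 25.7 to 35.7. The intervals of the 2 groups did not meet, but they cover counting error only and not the spread between libraries. Pax6 held 21.4% and 21.1% against 36.9% and 26.8%, and Nr2f2 1.72% and 3.01% against 8.66% and 7.78%. These shares are tied, since a smaller Lhx2 count raises the others, and with 2 against 2 libraries a two-sided permutation test cannot go below 0.333.

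**Figure D3:**
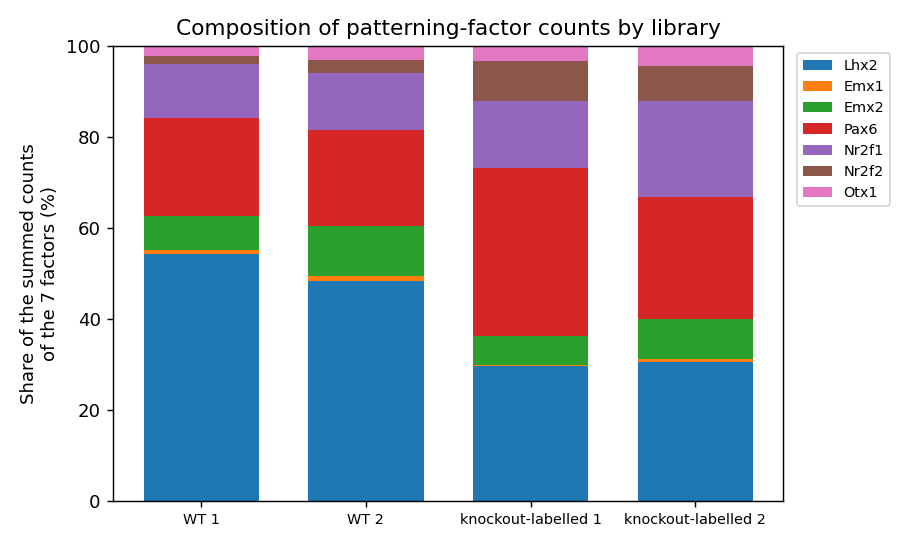
Share of the summed counts of the 7 factors held by each, per library, as stacked bars from 0 to 100%. The Lhx2 segment is 54.3% and 48.2% in WT and 29.6% and 30.5% in the knockout-labelled libraries, and the Nr2f2 segment goes from at most 3.01% to at least 7.78%.

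Ratios between pairs of members avoid that tie. Lhx2 had 2.54 and 2.29 counts per count of Pax6 in WT and 0.80 and 1.14 in the knockout-labelled libraries, so that the groups were apart. Per count of Emx2, Lhx2 had 7.25 and 4.39 in WT and 4.61 and 3.42 in the knockout-labelled libraries, which overlapped. Nr2f2 made up 12.5% and 19.5% of the counts of Nr2f2 and Nr2f1 together in WT (exact 95% intervals 6.41 to 21.3 and 11.8 to 29.4) and 36.9% and 27.0% in the knockout-labelled libraries (26.6 to 48.1 and 18.6 to 36.8). The groups were apart, but the interval of the higher WT library reached into those of both knockout-labelled libraries.

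The lists of LIM cofactors and of other regional factors held no call. Of all tested genes, edgeR called 2.06%, and 14.2% had an unadjusted p below 0.05. Of the LIM cofactor list, which holds Ldb proteins that bind LIM domains, LIM-only proteins that compete for them and Ssbp proteins that bind Ldb, 0 of 6 tested genes were called by edgeR, DESeq2 or limma-voom, and 2 had an unadjusted edgeR p below 0.05. Ldb1, the most abundant, was at 342 ± 77.0 CPM in WT and 299 ± 13.8 in the knockout-labelled libraries (SD, n = 2 each), and Lmo3 was at 152 ± 76.5 and 137 ± 36.5. The cofactors with an unadjusted p below 0.05, named after their values were seen, were Lmo2 (26 and 54 counts against 24 and 11, log2 fold change -1.14 ± 0.34 SE, adjusted p = 0.0658, edgeR) and Ssbp4 (12 and 38 against 17 and 6, -1.06 ± 0.43 SE, adjusted p = 0.228, edgeR). Of 12 other regional factors of the forebrain tested, 0 were called by each tool and 3 had an unadjusted edgeR p below 0.05. Bcl11a, a zinc-finger factor of cortical cells, was at 675 ± 65.4 and 556 ± 4.55 CPM. Zic1, a factor of the dorsal midline, was at 188 ± 125 and 308 ± 82.5 CPM. The 3 with an unadjusted p below 0.05 were Zic1 (log2 fold change 0.71 ± 0.26 SE, adjusted p = 0.160, edgeR) and, named after their values were seen, Zic4 (0.95 ± 0.39 SE, adjusted p = 0.235, edgeR) and Pou3f2 (0.77 ± 0.38 SE, adjusted p = 0.346, edgeR). The medians of the log2 fold changes of these lists were -0.18 and 0.02.

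Signals that pattern the pallium were measured mostly at low counts. Over all tested genes, 2.06% were called by edgeR and 14.2% had an unadjusted p below 0.05. Of the cortical hem and roof list, 3 of 14 genes analysed were tested, and 1 was called: Ttr, a secreted marker of choroid plexus, rose, with 31 and 26 counts in WT against 114 and 29 in the knockout-labelled libraries (adjusted p = 0.0152, edgeR). The second knockout-labelled library lay near WT. Of the 3 tested genes limma-voom called 1 and DESeq2 0. The other tested genes of this list are named after their values were seen. Wnt8b, a Wnt ligand of the hem, had 7 and 47 counts in WT against 15 and 7 (log2 fold change -1.23 ± 0.48 SE, adjusted p = 0.199, edgeR). Rspo3, a secreted enhancer of Wnt signalling, had 11 and 19 against 21 and 16 (0.35 ± 0.38 SE, adjusted p = 0.764, edgeR). Ttr and Wnt8b had an unadjusted edgeR p below 0.05, 2 of 3 tested genes, and the list median was 0.35. Of the rostral FGF list, 4 were tested and 0 called by each tool, with 1 at an unadjusted edgeR p below 0.05. Its most abundant genes were Fgfr2 (167 ± 7.53 and 145 ± 35.8 CPM) and Etv1 (92.2 ± 27.6 and 185 ± 95.02 CPM), the latter being the gene below 0.05 (log2 fold change 1.03 ± 0.29 SE, adjusted p = 0.0530, edgeR). Of the antihem list, Nrg1 alone was tested (41.3 ± 22.9 and 42.6 ± 11.1 CPM) and was not called by any tool, nor at an unadjusted p below 0.05. In the list of the diencephalon and thalamic eminence, 0 of 2 were called by each tool and 0 had an unadjusted p below 0.05, with Lhx9 at 81.3 ± 3.56 and 67.8 ± 32.0 CPM and Tcf7l2 at 43.4 ± 5.73 and 37.4 ± 18.5 CPM. The median log2 fold changes were 0.06 for rostral FGF, 0.09 for Nrg1 as the antihem list and -0.19 for the diencephalon list.

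Genes of progenitors, in which most members are expressed, were set beside them. None of 9 tested progenitor genes was called by edgeR, DESeq2 or limma-voom, and 0 had an unadjusted p below 0.05. By edgeR, 2.06% of all tested genes were called and 14.2% had an unadjusted p below 0.05. Nes, an intermediate filament of neural stem cells, was at 310 ± 3.36 CPM in WT and 302 ± 9.99 in the knockout-labelled libraries, and Vim was at 216 ± 82.2 and 226 ± 10.6. Of these 9 genes 4 were higher and 5 lower, with a list median of -0.02. Their log2 fold changes ran from -0.60 ± 0.42 for Sox2 to 0.66 ± 0.50 for Fabp7 (SE, both named after their values were seen). Fabp7 had 9 and 6 counts in WT against 12 and 11, so it was tested through the knockout-labelled libraries. The summed list was 1133 and 1346 CPM in WT and 1175 and 1271 in the knockout-labelled libraries, which overlapped. Per 1000 counts of this list, Lhx2 had 930 and 564 counts in WT against 240 and 290 in the knockout-labelled libraries. Emx2 had 128 and 129 against 52.0 and 84.7. Nr2f2 had 29.4 and 35.3 against 70.1 and 73.8. These 3, already apart as CPM, were apart on this scale too, where Pax6 (366 and 247 against 299 and 254), Nr2f1 (206 and 145 against 120 and 199) and Otx1 (37.4 and 35.3 against 27.1 and 41.0) overlapped. As CPM the groups were apart for 42.9% of all tested genes.

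Genes of other cell types were summed and tested in the same way. Over all tested genes, 2.06% were called by edgeR. All 12 tested genes of intermediate progenitors and neurons were higher in the knockout-labelled libraries, 2 of them called: Mapt, a neuronal microtubule protein (log2 fold change 1.83 ± 0.22 SE, adjusted p = 8.85e-07, edgeR), and Dcx, another (1.17 ± 0.24 SE, adjusted p = 0.00461, edgeR). Gap43, with 4 and 8 counts in WT against 19 and 10, was tested only through the knockout-labelled libraries. By DESeq2 1 of 12 was called and by limma-voom 4. The median was 0.62, and the list, over all its genes analysed, summed to 1908 to 1941 CPM in WT and 3048 to 3119 in the knockout-labelled libraries. In the subpallium list 4 of 5 tested genes were higher and 1 lower. By limma-voom 2 were called and by DESeq2 0. The 2 called by edgeR were Dlx1, with 0 and 8 counts against 34 and 14, and the overlapping Dlx1as, with 0 and 0 against 31 and 19. Dlx1, Dlx1as, Gad2 and Ebf1 each had fewer than 10 counts in both WT libraries and passed the filter through the knockout-labelled ones. The median log2 fold change was 1.78 over the tested genes and 1.49 with no filter. The sum over all 12 genes analysed was 45.4 to 165 CPM in WT and 285 to 369 in the knockout-labelled libraries, and Gsx2 and Dlx2 had at most 2 counts in any library.

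Of 8 tested genes of blood, endothelium and microglia, 5 were called by edgeR, where 2.06% of all tested genes were called. By limma-voom 5 were called and by DESeq2 0. In the edgeR test the microglial genes Cx3cr1, Aif1, Csf1r and Tyrobp rose and the embryonic globin Hbb-bh1 fell. Hbb-bh1 had 16 and 47 counts in WT against 4 and 13 (log2 fold change -1.80 ± 0.46 SE, adjusted p = 0.0279, edgeR). Its second knockout-labelled library (45.2 CPM) lay near the first WT library (48.5 CPM). The other embryonic globins tested were not called and are named after their values were seen. Hba-x had 15 and 24 counts in WT against 43 and 36 (log2 fold change 1.07 ± 0.31 SE, adjusted p = 0.0563, edgeR). Hbb-y had 26 and 49 against 44 and 22 (-0.14 ± 0.30 SE, adjusted p = 0.898, edgeR). The list, over all 14 genes analysed, summed to 315 to 500 CPM in WT and 677 to 725 in the knockout-labelled libraries, with C1qa at 0 in WT and at most 2 counts elsewhere. In the mesenchyme list 1 of 4 tested genes was called, as Col1a2, a fibrillar collagen, rose (2.12 ± 0.47 SE, adjusted p = 0.00742, edgeR). By limma-voom 1 was called and by DESeq2 0. Cx3cr1, Aif1, Tyrobp, Pecam1, Col1a2 and Col3a1 had fewer than 10 counts in both WT libraries, so that they too were tested through the knockout-labelled ones. The mesenchyme sum over all 8 genes analysed was 103 to 274 CPM in WT and 320 to 497 in the knockout-labelled libraries. The summed levels of the lists of neurons, subpallium, mesenchyme and blood, endothelium and microglia did not overlap between groups. The levels of Lhx2, Emx2 and Nr2f2 did not either, but the groups were apart for 42.9% of all tested genes. The part of these lists in the values of those members was not tested.

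**Figure D4:**
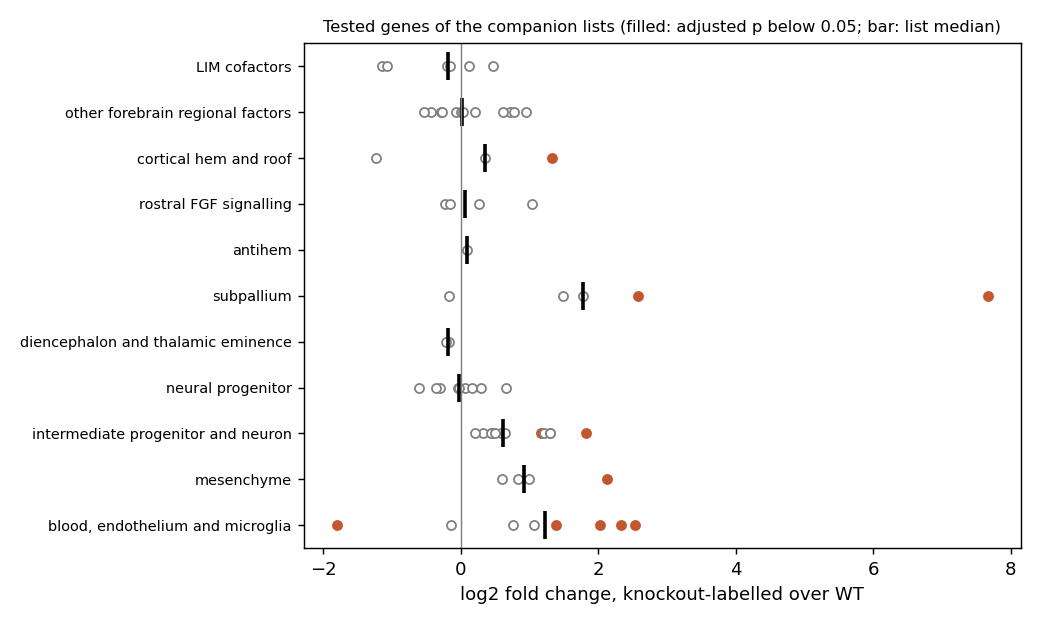
Log2 fold change, knockout-labelled libraries over WT, of each tested gene of the 11 lists, with genes called by edgeR filled and the list median as a bar. Of the 9 progenitor genes 4 lie above 0 and 5 below, from -0.60 (Sox2) to 0.66 (Fabp7), and none was called. All 12 tested genes of intermediate progenitors and neurons, Gap43 among them, lie above 0. The point farthest right is Dlx1as, whose value depends on 0 counts in WT and is no estimate of size. Genes with fewer than 10 counts in both WT libraries were tested through the knockout-labelled ones, among them Gap43, Fabp7, Col1a2, Col3a1, Cx3cr1, Aif1, Tyrobp, Pecam1 and 4 of the 5 subpallium genes, and the bars of their lists include them.

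**Figure D5:**
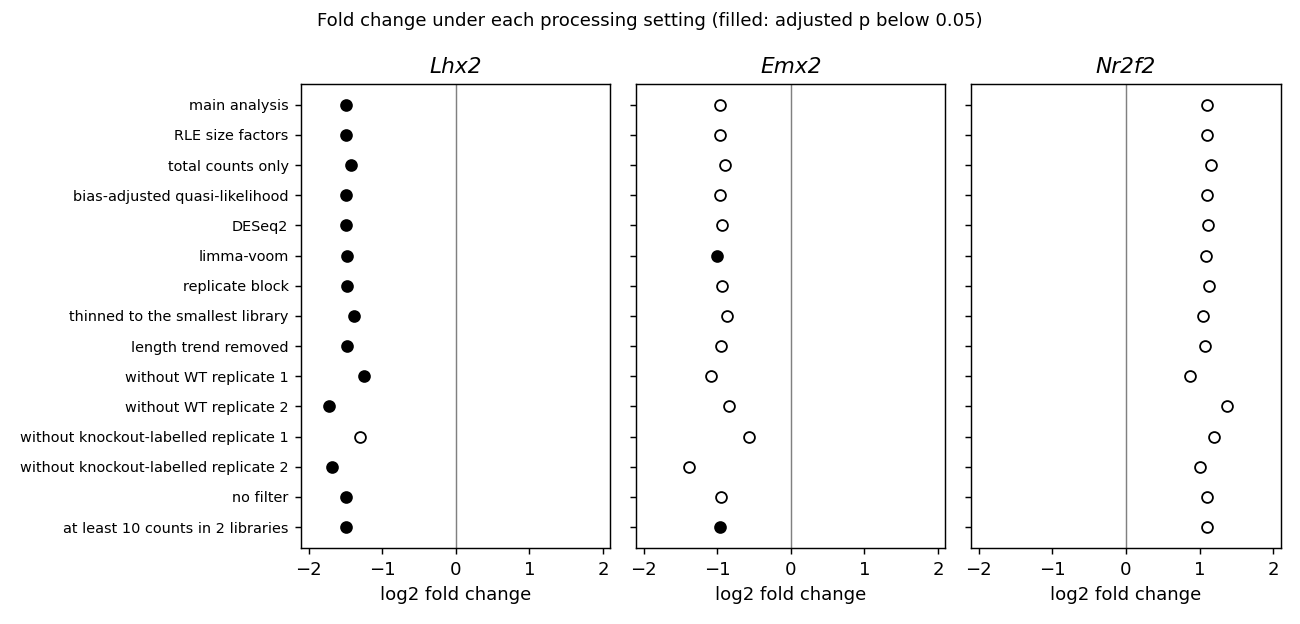
Log2 fold change of Lhx2, Emx2 and Nr2f2 under each processing setting, filled where the adjusted p was below 0.05. Lhx2 was called in every setting shown but the one without the first knockout-labelled library, Emx2 in 2 settings and Nr2f2 in none (DESeq2 gave Nr2f2 no adjusted p), and no point crosses 0.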

How the data were processed

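Poly(A)-enriched RNA of 4 libraries was measured by Nanopore sequencing. The deposited table holds raw read counts per gene, not normalized, which the authors made from minimap2 alignments to Ensembl mouse transcripts, followed by FLAIR. The submitters' processing notes name GRCm38. How isoforms were summed, strand was used and multi-mapping reads were treated is not stated in the sources used here. Columns were matched to samples by name. Symbols and coordinates (1-based) came from GENCODE M21, which matched 16436 of 16449 identifiers. Promoter windows came from RefSeq.

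The main test was edgeR 4.0.16 (R 4.3.3). Genes passed filterByExpr (minimum count 10, minimum total 15), libraries were TMM-scaled, and glmQLFit with glmQLFTest compared the groups, two-sided, with no covariate, and Benjamini-Hochberg adjustment over 5878 genes. The biological coefficient of variation was 10.5%, with 2 residual and 37.5 prior degrees of freedom. Each SE is the absolute log2 fold change over the square root of F. Log2 CPM for correlations and profiles used a prior count of 2. Transcripts were aligned with blastn 2.17.0. Totals were 305642 to 397150 counts, and intervals of counts cover counting error only. The test was also run on counts simulated from the model it assumes, with the same variation for every gene, taken from these data. Such a run does not speak to libraries that differ in dissected tissue.

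The members and lists were chosen with earlier results of these data known. Named were the 9 members and Tut1; from each list at most 5 called genes by smallest p, or where none was called the 2 with the highest mean count; genes overlapping a member; the nearest tested genes beside a called member; and the 3 profiles nearest to it. Markers at or near 0 were added with their values already known. Alternatives were median-of-ratios (RLE) factors, total counts only, no filter, 10 counts in 2 libraries, bias-adjusted quasi-likelihood, DESeq2 1.42.0, limma-voom (limma 3.58.1), a replicate block, leaving out each library, thinning to the smallest total, and the length trend removed (loess, span 0.5). Where a library was left out, the lone library was assumed to vary like the others. Promoter sequences of Otx1 and protein sequences were not used here.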

Additional observations from a re-analysis of the deposited data

How the results depend on the processing

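Lhx2 kept its direction in every setting run and its call in all but one, the fit without replicate 1 labelled knockout. The number of genes called, 121, became 12 with DESeq2, 59 after thinning and 76 with the replicate block, of which 74 were among the 121. Replicate numbers were shared by the labels alone: deviations of same-numbered libraries had a correlation of -0.06, and the block (Lhx2 -1.48, adjusted p = 3.95e-05, edgeR) changed no member's call. Scaling by total counts gave 105 higher and 24 lower calls in place of 82 and 39. Members called were 2 with limma-voom and 2 with the filter of 10 counts in 2 libraries, where Emx2 (-1.002 and -0.96) was added. Low counts limit Emx1, Otx1 and Nr2f2 most.

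Leaving out each library in turn gave 3 to 108 genes called (3 without replicate 1 labelled knockout, 35 without replicate 2 labelled knockout, 75 without WT replicate 1) and 0 to 1 members. Log2 fold changes ranged from -1.72 to -1.24 for Lhx2, -1.38 to -0.57 for Emx2, -2.72 to -1.40 for Emx1, 0.87 to 1.37 for Nr2f2, -0.31 to 0.015 for Pax6, -0.60 to 0.24 for Nr2f1 and -0.49 to 0.21 for Otx1. Pax6, Nr2f1 and Otx1 changed sign. The cause was not tested.

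List genes called, 11 in all, became 1 with DESeq2, 6 after thinning, 17 with 10 counts in 2 libraries and 1 to 17 when a library was left out (17 without WT replicate 2, 1 and 6 without replicates 1 and 2 labelled knockout). With no filter, where more genes enter, list medians moved to 0.088 for LIM cofactors, 0.44 for rostral FGF, 1.34 for antihem, 1.24 for diencephalon and 0.96 for blood, endothelium and microglia. Leaving out a library gave medians of -0.34 to -0.017 for LIM cofactors, -0.12 to 0.14 for other regional factors, 0.06 to 0.72 for hem and roof, 0.04 to 0.30 for rostral FGF, -0.41 to 0.78 for antihem, 1.17 to 6.76 for subpallium, -0.84 to 0.18 for diencephalon, -0.21 to 0.18 for progenitors, 0.51 to 0.78 for intermediate progenitors and neurons, 0.55 to 1.78 for mesenchyme and 1.09 to 1.43 for blood, endothelium and microglia. The subpallium value of 6.76 came without WT replicate 2. It rests on Dlx1, Dlx1as and Gad2, each at 0 counts in WT replicate 1, and is no estimate of size. With Lhx2 left out of the sum, the difference in share (labelled knockout minus WT, percentage points) moved to -1.61 for Emx1, -7.81 for Emx2, 1.73 for Pax6, 0.53 for Nr2f1, 6.96 for Nr2f2 and 0.19 for Otx1, by the construction of the sum.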
